A study of Homo sapiens with 12 samples.

Results

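Wild-type SPRY2 was compared with Mock in SW480 ADH cells, adherent human colon carcinoma cells, by setting the 3 arrays titled SPRY2 WT against the 3 titled Mock. These are 6 of the 12 samples of the series, and all 24916 Ensembl gene IDs of the value table entered the comparison. Mock cells were mock transfected, and WT cells were transfected with the unmutated SPRY2 gene. The remaining arrays, 3 for the S112A mutant and 3 for the Y55F mutant of SPRY2, served the estimate of spread and are given beside the WT values where a gene ID was followed through the series. All cells were cultured for 72 h in medium with 10% serum, and total RNA was amplified, labelled with biotin and hybridised to Affymetrix microarrays. The labels give neither the vector, nor the amount of SPRY2 reached, nor whether a group stands for separate transfections or 1 transfected population. The error behind each p-value is therefore the variation among these arrays, part of which may be technical.

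SPRY2 encodes Sprouty2, an intracellular protein that is induced by growth factor signalling and acts back on it, in most settings as a brake on the Ras and ERK pathway downstream of receptor tyrosine kinases. Its conserved tyrosine, the residue exchanged in Y55F, is a docking site for the ubiquitin ligase Cbl, and through Cbl Sprouty2 can also prolong signalling by the epidermal growth factor receptor. The colon epithelium from which such carcinomas arise depends on this signalling for growth and migration.

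None of the 24916 gene IDs could be paired with a symbol through the value table or the RefSeq gene table used here. SPRY2 itself, the identity of the cells by their markers and lists of genes by function are therefore not analysed here, and 2 falls and 2 rises stand as examples by ID, while all others are given as counts and ranges. No sequence is printed for the same reason. The arrays were alike in distribution, with medians of 7.22 to 7.32 on the log2 scale in the 6 arrays. Across gene IDs the correlation was 0.997 to 0.998 between arrays of the same group and 0.991 to 0.994 between a WT and a Mock array.

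The deepest fall in WT cells was that of ENSG00000147676, from one of the highest levels on the Mock arrays to below the median. It stood at 12.85, 12.79 and 12.90 (log2) in Mock replicates 1 to 3, above 99.3% of all IDs by its Mock mean. In WT replicates 1 to 3 it stood at 6.05, 7.78 and 6.28. The groups lay far apart, and WT replicate 2 was the highest of the WT arrays. The difference of mean log2 was -6.15 ± 0.32 (SE), a 70.8-fold fall with adjusted p = 1.42e-07 in limma. This SE pools the spread within all groups of the series (n = 3 in each), the mutants included. With only the Mock and WT arrays the SE was larger, 0.39, with adjusted p = 5.14e-05 in limma. Even the nearest arrays of both groups were 32.2-fold apart. The WT mean, 6.70 ± 0.94 (SD, n = 3), lay above 43.3% of all IDs.

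The fall of ENSG00000104413 was next in size and was tighter among the WT arrays. Its Mock arrays read 10.85, 10.98 and 10.94 on the log2 scale. Its WT arrays read 5.71, 6.08 and 6.02, without overlap. The log2 difference was -4.98 ± 0.11 (SE), 31.6-fold, with adjusted p = 2.00e-10 in limma, and the nearest arrays were 27.2-fold apart. Its level thus moved from above 90.5% of all IDs in Mock to above 32.5% in WT.

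The largest rise was that of ENSG00000145824, which lay mid-scale in Mock and near the top in WT. The Mock arrays read 7.30, 7.58 and 6.79 on the log2 scale, and the WT arrays 12.82, 12.86 and 12.93. All WT arrays were high and close together, while the Mock arrays varied more, with an SD of 0.40 against 0.06. The log2 difference was 5.65 ± 0.16 (SE), 50.1-fold, with adjusted p = 8.45e-10 in limma. By its mean the ID stood above 49.4% of all IDs in Mock and above 99.3% in WT.

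ENSG00000207081 had the next largest rise, from the low end of the scale. It read 4.82, 4.75 and 5.09 in the Mock arrays, and 9.27, 9.17 and 9.30 in the WT arrays, again with no overlap. The log2 difference was 4.36 ± 0.28 (SE) with adjusted p = 7.67e-07 in limma. This SE takes in the wider spread of the Y55F arrays. With only the Mock and WT arrays it was 0.09, with adjusted p = 3.43e-07 in limma. Its Mock mean lay above only 10.5% of all IDs, close to the lowest values of the Mock arrays, 3.95 to 4.02, and no fold is given. The plot of the 4 IDs by array shows these values beside the mutants.

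**Figure D1:**
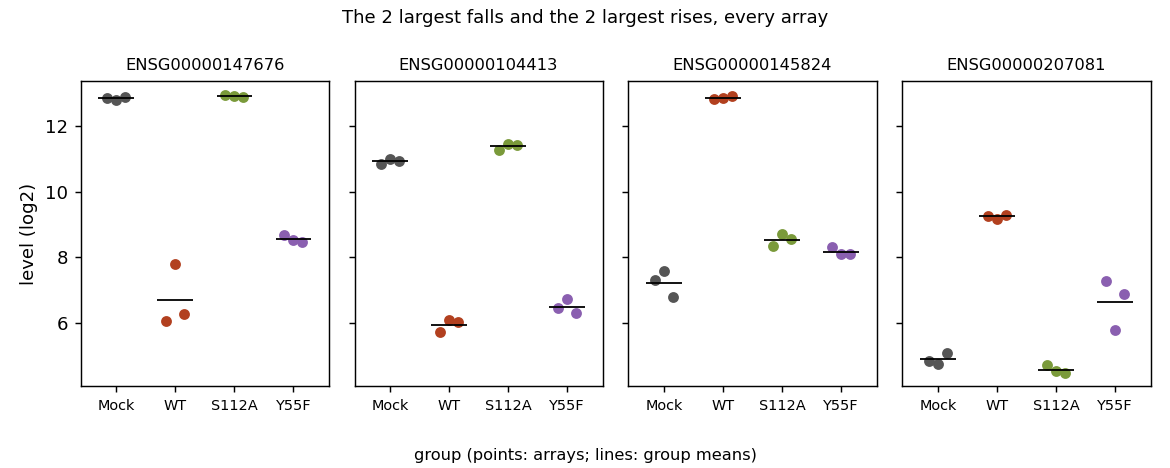
Level (log2) of the 2 gene IDs with the largest falls and the 2 with the largest rises in WT against Mock, with 1 point for each of the 12 arrays and a line for each group mean. The 4 IDs were chosen among calls whose WT and Mock arrays did not overlap. For ENSG00000147676 the WT arrays spread from 6.05 to 7.78.

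The same 4 IDs took different levels with the mutants, which were compared with WT in the same fit. The IDs were chosen for extreme values on these WT arrays, so the differences from WT and their p-values are not independent of that choice. ENSG00000147676 stood at 12.92 ± 0.03 (SD, n = 3) in S112A cells and at 8.56 ± 0.11 in Y55F cells. These levels were 6.22 and 1.85 above WT on the log2 scale, with adjusted p = 5.30e-08 and 0.00146 in limma. ENSG00000104413 stood at 11.39 ± 0.11 in S112A and 6.49 ± 0.21 in Y55F cells, which was 5.45 and 0.55 above WT, with adjusted p = 3.15e-11 and 0.00413 in limma. Both IDs were thus high in S112A arrays and below Mock in Y55F arrays. ENSG00000145824 differed from WT by -4.33 in S112A and -4.69 in Y55F cells on the log2 scale, with adjusted p = 2.96e-09 and 3.40e-09 in limma. All its mutant arrays lay between the Mock and the WT arrays. ENSG00000207081 read 4.71, 4.54 and 4.48 in the S112A arrays and 7.28, 5.77 and 6.87 in the Y55F arrays, all below the WT arrays, with the Y55F arrays the most spread (SD 0.78). Its log2 differences from WT were -4.67 and -2.61, with adjusted p = 1.60e-07 and 3.63e-05 in limma. As all groups share 1 estimate of spread, the p-values of ENSG00000147676, whose WT arrays are spread, may be too small. For ENSG00000207081 this applies to Y55F against WT, while its comparisons without the Y55F arrays may have p-values that are too large.

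The 15 largest falls and the 15 largest rises were taken from the calls whose WT and Mock arrays did not overlap. Separation of the arrays and a call were thus conditions of the choice, not results. The falls ranged from 6.01-fold to 70.8-fold with a median of 8.85-fold, and the rises from 3.63-fold to 50.1-fold with a median of 5.66-fold. Measured between the nearest arrays of the groups, the distance was still 4.51-fold to 32.2-fold for the falls and 3.13-fold to 37.6-fold for the rises. The falls started from Mock levels of 8.59 to 12.92 (log2, median 10.47) and ended at WT levels of 5.94 to 10.23 (median 7.29). The rises started from 4.89 to 8.77 (median 7.12) and ended at 7.70 to 12.87 (median 9.87). By their medians, the falls ended near the median of all IDs in WT, 7.28, and the rises began near the Mock median of 7.27. Single IDs of both lists lay well above or well below these medians. Adjusted p in limma was at most 1.42e-07 for the falls and 3.38e-06 for the rises.

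**Figure D2:**
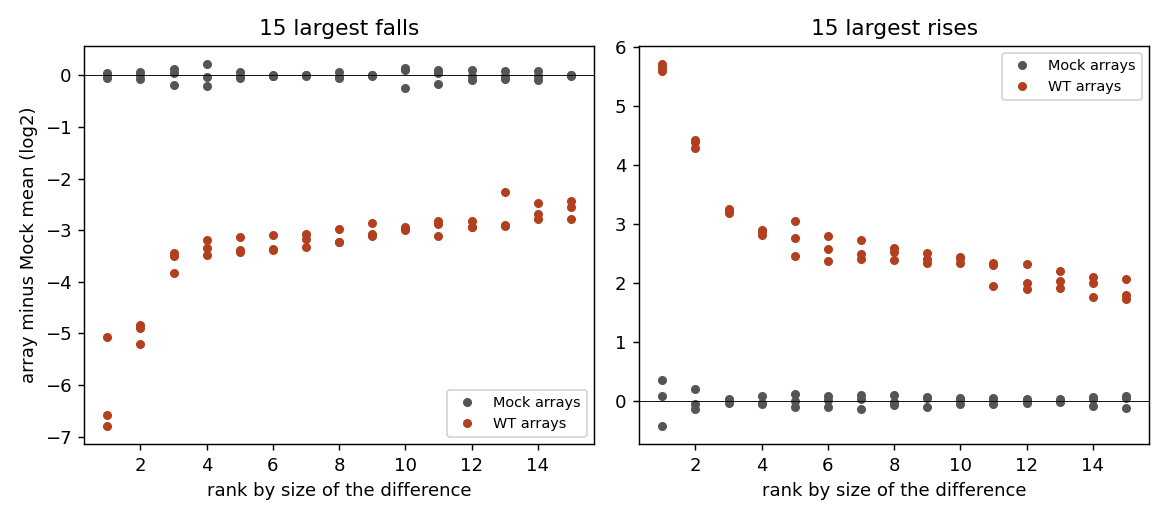
Value of each Mock and WT array minus the Mock mean (log2) for the 15 gene IDs with the largest falls (left) and rises (right), ordered by size of the difference, with 3 points per group and ID. The Mock and WT arrays separate at every rank by the choice of IDs. The falls are larger by their means than the rises at the same rank, at 15 of 15 ranks.

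Beside these values stand those of the mutants for the same IDs, which share the Mock arrays with the WT comparison. The 15 falls had log2 differences from Mock of -1.01 to 2.10 in S112A cells, with a median of 0.26, and 7 were called higher and 2 lower than Mock in limma. In Y55F cells the range was -4.43 to 0.23 with a median of -2.05, and 14 were called lower and 1 higher. The background of these calls over all IDs was 5.88% higher and 7.12% lower in S112A cells, and 8.18% higher and 7.95% lower in Y55F cells. It takes in IDs of all levels, while the falls began at Mock levels of 8.59 to 12.92 and the rises at 4.89 to 8.77. A background at like levels was not computed. The 15 rises had medians of 0.05 in S112A and 0.21 in Y55F cells, with ranges of -3.31 to 2.77 and -2.46 to 1.75. Of these, 6 were called higher and 3 lower in S112A cells, and 7 higher and 2 lower in Y55F cells.

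Over the whole table, 2353 gene IDs or 9.44% were called at an adjusted p under 0.05 in limma, 1321 higher in WT (5.30%) and 1032 lower (4.14%). The direction of the excess depended on the size of the change. Below 1.5-fold, rises were more frequent, with 1006 against 636 falls, and these small changes made up 69.8% of all calls. At 1.5-fold and above, falls were more frequent, with 396 against 315 rises, as they were with 146 against 88 at 2-fold, 26 against 13 at 4-fold and 9 against 3 at 8-fold. The median called fall was 1.41-fold and the median called rise 1.32-fold. That order of counts on either side of 1.5-fold was found with each of the 6 arrays left out in turn. The excess of small rises was least without WT replicate 3, with 645 rises and 528 falls under 1.5-fold, and the totals then turned to 931 higher and 947 lower. WT replicate 3 also had the highest mean of the 6 arrays, 7.64 against 7.58 to 7.61. Its median difference from the same-numbered Mock array over all IDs was 0.06 on the log2 scale, against 0.00 and -0.01 for replicates 1 and 2. That Mock array had the lowest median of the 6 arrays, 7.22. The median of WT replicate 3, 7.30, lay below that of Mock replicate 2, 7.32. With the arrays centred on their medians, 906 rises and 621 falls under 1.5-fold were called. After quantile normalizing again the numbers were 1010 and 766. The part of the level of WT replicate 3 in the small rises was not tested beyond these fits and leaving it out. Large falls outnumbered large rises without it too, 153 against 80 at 2-fold.

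**Figure D3:**
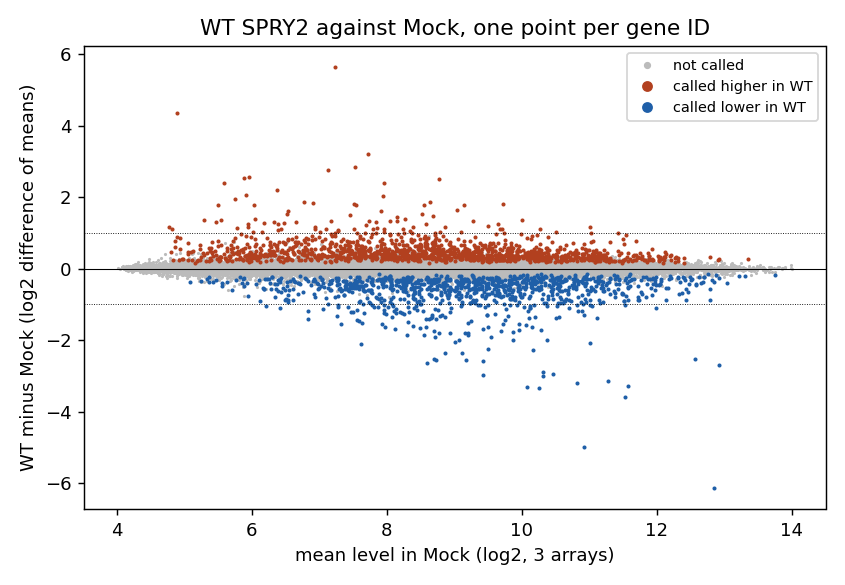
Difference of mean log2, WT minus Mock, against the mean Mock level (log2) for 24916 gene IDs, coloured by call at an adjusted p under 0.05; dotted lines mark 2-fold. The 146 called falls beyond the lower line begin mostly at Mock levels above 7.27, and of the 88 rises beyond the upper line 38 begin below that level.

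Changes of 2-fold or more in the means were in part smaller between single arrays. All 234 IDs that differed by at least 2-fold passed the test, as did all but 21 of the 732 that differed by at least 1.5-fold. Between the nearest WT and Mock arrays, 98 of the 146 falls and 50 of the 88 rises were still at least 2-fold, and 22 and 10 were at least 4-fold apart. Taking same-numbered arrays as pairs, 132, 129 and 135 of the 146 falls were at least 2-fold in pairs 1, 2 and 3. The same was true of 80, 77 and 78 of the 88 rises. The 146 falls had a median SD of 0.10 in Mock and 0.13 in WT, and the 88 rises 0.11 and 0.15, against 0.07 in both groups over all IDs.

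Starting levels differed between the directions. The IDs were chosen by their difference from Mock, so their Mock levels are in part bound to that choice. Of the 146 IDs that fell at least 2-fold, 139 lay above the median of all IDs in Mock and 60 above the upper quartile, 9.45, while 67 lay below the median in WT. Of the 88 that rose at least 2-fold, 38 lay below the median in Mock and 32 reached above the upper quartile in WT. The scale has a floor, with lowest values of 3.95 to 4.02 in the 6 arrays, and its part in the difference between directions was not tested.

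Set by group, the 146 falls had a median level of 9.08 in Mock, 7.35 in WT, 9.25 in S112A and 7.94 in Y55F cells (log2). The 88 rises had medians of 7.54, 8.96, 7.21 and 7.37 in the same order. Against the shared Mock arrays, the median difference of the falls was -1.36 in WT, 0.11 in S112A and -0.92 in Y55F cells, and that of the rises 1.30, -0.20 and 0.02. These lists were chosen on WT and Mock arrays, so the WT and Mock values are fixed by the choice, which did not use the mutant levels. Over all IDs the medians were 0.02, -0.01 and 0.00.

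The share of IDs called differed between expression levels. All IDs were divided into 10 level groups of 2491 or 2492 IDs by their mean over the 12 arrays. In group 1, with levels up to 4.87, limma called 0 of 2492 IDs at an adjusted p under 0.05, and 28 had an unadjusted p under 0.05. That is a smaller share than the 0.05 that such p-values give with no change. The root mean square difference between WT and Mock in this group was 0.05, no larger than the median SE of 0.0519. The fit drew the spread of IDs towards 1 common value at all levels, and the part of this in the shares called was not tested. The share called rose to 8.91% in group 5 and was highest in group 7 (levels 8.15 to 9.04), where 17.2% were called against 9.44% of all IDs. It was 12.1% in group 10. Rises were in the majority in each of groups 2 to 10, by 98 to 40 in group 4 and by 218 to 208 in group 8. Without WT replicate 3 that majority held in groups 2 to 5 and turned in groups 6 to 10, to 146 rises and 196 falls in group 8. Falls of at least 2-fold outnumbered such rises in each of groups 5 to 10, by 40 to 19 in group 6 and 31 to 10 in group 8. The same groups had more large falls than rises without WT replicate 3, by 44 to 18 in group 6.

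**Figure D4:**
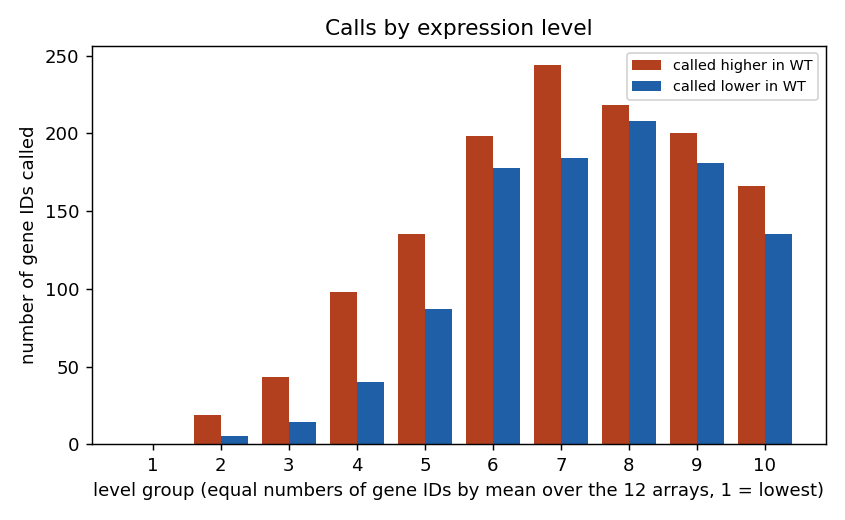
Number of gene IDs called higher (left bar) and lower (right bar) in WT than in Mock, in 10 level groups of IDs by mean over the 12 arrays, from the lowest (1) to the highest (10). Group 1 holds 0 calls, and group 7 holds the most, 244 higher and 184 lower.

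Over all gene IDs the difference between WT and Mock was small for most. The root mean square difference was 0.25 on the log2 scale, against a root mean square SE of 0.09. Large differences weigh most in this measure, which was 0.63 for the called rises and 0.83 for the called falls. From the first to the third quartile the differences ran from -0.04 to 0.08, with a median SE of 0.07. The signed differences had a 99th percentile of 0.66 and a 1st percentile of -0.79. The WT arrays lay wholly above the Mock arrays for 3652 IDs (14.7% of those tested) and wholly below them for 2457 (9.86%). With 3 arrays against 3, some IDs separate in this way without any change. The counts were not corrected for that and are not counts of changed IDs. Without WT replicate 3 these numbers were 4166 and 4210 of the 24916 IDs. With fewer arrays to separate, such counts can only stay or rise, so only the balance of directions can be compared. By that balance the excess of higher IDs was lost. Of the 2353 called IDs, 2351 had no overlap between the groups. A further 3758 IDs had no overlap and were not called, so that separation of the 6 arrays alone was more common than the calls.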

How the data were processed

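Values for 12 arrays were taken as deposited, as log2 expression per Ensembl gene ID; that the scale is log2 was read from the values. Per the submitters' processing notes, the tools were RMA and affy, without version or role; array model, build and annotation are not given in the sources used here. RMA usually makes levels relative within an array set. Raw intensities were not used here. Groups and replicate numbers came from the sample titles. No pair of arrays was identical.

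WT was compared with Mock in limma 3.58.1 (R 4.3.3), with 1 mean per group over all 12 arrays, no filter, 8 residual degrees of freedom, and Benjamini-Hochberg adjustment over 24916 IDs at 0.05. A fold is 2 to the power of a difference of mean log2 values. The procedure was tested on simulated data. The printed IDs are the 2 largest rises and falls among calls whose WT and Mock arrays did not overlap; the 15 largest each way were summarised. The rule asked for symbols, and 0 of the 59792 RefSeq genes used here (GRCh38.p14) carried an Ensembl ID, so it was cut to IDs, and 24 lists by function and 4 marker lists were not run. Comparison, rule and lists were chosen with earlier results of these data known.

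Same-numbered WT and Mock arrays deviated together from their group means (r = 0.14, 0.46 and 0.36 across IDs). Each value was above 0.1, the limit set for treating the numbers as pairs. Within each group the deviations of an ID cancel out, so differently numbered WT and Mock arrays deviated in opposite directions on average. What the replicate numbers stand for was not tested, and the labels do not say that they mark pairs. The main fit was made without a block for the replicate number, although the limit was passed. With the block, an alternative, 1495 IDs were called higher and 1167 lower in WT, against 1321 and 1032 in the main fit. The 3 arrays per group limit the precision. Other alternatives were only the 6 arrays, leaving out the IDs of lowest mean, centring, quantile normalizing again, array weights, another variance prior, a 1.5-fold minimum and leaving out each array.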

Additional observations from a re-analysis of the deposited data

How the results depend on the processing

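Array weights raised the calls to 4230, with 2415 higher and 1815 lower in WT, where S112A replicate 2 was weighted 6.06, Mock replicate 1 5.31 and each remaining array 0.467 to 1.35; the cause was not tested. A minimum of 1.5-fold left 711 calls, 315 higher and 396 lower, which by construction can only lower the count. The remaining 144 of 150 alternative values stayed within 1.5 times a count or, for the 4 IDs, kept direction and call. Leaving out 1 array gave 1788 to 2035 calls, 931 to 1193 higher and 829 to 947 lower. At 2-fold it gave 79 to 99 rises and 134 to 153 falls, and at 4-fold 11 to 14 and 25 to 29. Without WT replicate 3 the majority turned, with 931 higher and 947 lower, and a 1.5-fold minimum also turned it. With the replicate block 2662 IDs were called, of which 2306 were among the 2353 called without it, and no call of the 4 IDs changed. Rises outnumbered falls under 1.5-fold, and falls rises above it, in each of the 13 other fits. Planned counts for lists of genes by name were not run, since no ID could be named. Signal over background was not analysed, so low levels and folds against them are uncertain.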
